A study of Homo sapiens with 9 samples.

Results

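TGF-beta and bone morphogenetic protein (BMP) signalling was described in AC16 cells through 10 genes chosen by name from a table of 60671 genes. They are the ligands TGFB1, TGFB2 and TGFB3, the matrix protein gene TGFBI, the inhibitory SMAD genes SMAD6 and SMAD7, and the inhibitor of DNA binding genes ID1, ID2, ID3 and ID4. All 10 were found, and 9 of them passed the filter on low values and were tested, the exception being ID4. The rule that names them uses no measured value, although they were picked with earlier results of these data known.

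AC16 is an immortal human line derived from a fusion of adult ventricular tissue cells with transformed fibroblasts, and the labels call it a cardiomyocyte line. Polyadenylated RNA was measured in 3 libraries of cells given low glucose, 3 of cells given high glucose and 3 of cells that received chrysin, a plant flavone, in high glucose. No group received chrysin in low glucose. The sources used here give no glucose concentration, chrysin dose or treatment time. They do not say whether the libraries of a group came from separate cultures, so each p-value measures a spread among libraries that may be only technical.

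TGF-beta is secreted in a latent form, stored in the matrix, and once released it binds paired receptor kinases that phosphorylate SMAD2 and SMAD3. BMPs act through related receptors on SMAD1, SMAD5 and SMAD9, and both branches share SMAD4 for entry into target genes. SMAD6 and SMAD7 are induced by these pathways and block them in turn, SMAD6 mainly the BMP branch and SMAD7 both branches. The ID proteins, classical products of BMP signalling, lack a DNA-binding region and hold the E proteins TCF3, TCF4 and TCF12 away from DNA. In the heart this network is best known for activating fibroblasts and driving matrix deposition.

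Recovered read totals ran from 18171842 to 23024300 per library. Levels are in FPKM, the number of sequenced fragments per kilobase of transcript, scaled to the size of the library. Of 10 cardiomyocyte markers, 0 exceeded 1 FPKM in every library and 4 (NKX2-5, PLN, MYL2 and MYBPC3) were at 0 in every library. The 10 markers summed to 0.668 to 1.13 FPKM at low glucose, 0.766 to 1.04 at high glucose and 5.18 to 6.01 under chrysin, where ACTC1 (cardiac actin) averaged 4.83 FPKM. The defining markers of the labelled cell type were thus at 0 or low. Of 7 endothelial markers 0, and of 7 macrophage markers 1 (CD14), exceeded 1 FPKM in every library. Of 8 fibroblast markers, 7 exceeded 1 FPKM in every library. In chrysin 7 of the 8 fibroblast markers were called lower than in high glucose, beside 20.9% of all tested genes. The 8 summed to 3814 to 3954 FPKM in chrysin, against 6427 to 6782 in high glucose and 4880 to 5171 in low glucose. Most of each sum was COL1A1, which averaged 2899, 5138 and 3707 FPKM in the same order. THY1 was the marker not called lower, at 268 FPKM in chrysin and 264 in high glucose. Mitochondrial reads were 3.80% to 3.89% of each chrysin library and 2.79% to 3.04% of the others. The part of these differences in the results below was not tested. In bulk RNA, fewer cells of a kind and less RNA per cell cannot be told apart.

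The promoters of the ID genes and of the inhibitory SMADs are shown because related genes parted here: ID1 and ID3 rose with chrysin while ID2 and SMAD7 fell. RefSeq held start windows (250 bases before to 50 after the start, build GRCh38.p14) for 10 of the 10 genes, 13 windows in all. Each is printed 5′ to 3′ on the gene's strand, and capitals mark matches on either strand to 4 motifs: GTCTAGAC, the palindromic SMAD box; GGCGCC, a GC-rich motif of BMP-activated SMADs; CAGAC, the short SMAD box; and TATAAA, the TATA box. The windows lie at chr20:31605039-31605338 (plus strand, ID1), chr1:23559452-23559751 (minus strand, ID3), chr2:8681806-8682105 (plus strand, ID2), chr15:66701986-66702285 (plus strand, SMAD6) and, for the first listed of 3 SMAD7 windows, chr18:48950916-48951215 (minus strand).
ID1: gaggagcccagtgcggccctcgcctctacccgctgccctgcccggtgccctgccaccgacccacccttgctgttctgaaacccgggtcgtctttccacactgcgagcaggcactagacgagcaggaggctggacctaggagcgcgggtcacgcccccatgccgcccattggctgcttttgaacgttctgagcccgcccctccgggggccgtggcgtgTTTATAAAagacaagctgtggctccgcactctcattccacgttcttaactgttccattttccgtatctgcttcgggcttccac
ID3: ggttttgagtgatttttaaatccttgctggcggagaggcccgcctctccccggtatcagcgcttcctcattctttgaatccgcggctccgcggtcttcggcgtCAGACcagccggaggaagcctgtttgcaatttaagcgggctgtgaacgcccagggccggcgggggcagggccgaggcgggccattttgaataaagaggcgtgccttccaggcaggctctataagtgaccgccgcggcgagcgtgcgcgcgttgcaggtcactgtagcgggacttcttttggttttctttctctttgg
ID2: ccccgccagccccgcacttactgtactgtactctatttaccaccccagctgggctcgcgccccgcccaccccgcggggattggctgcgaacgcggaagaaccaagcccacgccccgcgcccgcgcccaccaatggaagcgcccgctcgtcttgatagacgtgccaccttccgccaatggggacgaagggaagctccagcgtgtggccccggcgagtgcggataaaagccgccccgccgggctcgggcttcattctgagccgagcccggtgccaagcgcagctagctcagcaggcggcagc
SMAD6: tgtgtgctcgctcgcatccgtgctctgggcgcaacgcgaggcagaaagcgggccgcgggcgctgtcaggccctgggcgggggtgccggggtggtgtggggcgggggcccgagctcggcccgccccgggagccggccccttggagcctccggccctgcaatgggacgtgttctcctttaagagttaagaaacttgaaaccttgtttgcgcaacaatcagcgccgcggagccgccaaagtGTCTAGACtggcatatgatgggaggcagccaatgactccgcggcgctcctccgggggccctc
SMAD7: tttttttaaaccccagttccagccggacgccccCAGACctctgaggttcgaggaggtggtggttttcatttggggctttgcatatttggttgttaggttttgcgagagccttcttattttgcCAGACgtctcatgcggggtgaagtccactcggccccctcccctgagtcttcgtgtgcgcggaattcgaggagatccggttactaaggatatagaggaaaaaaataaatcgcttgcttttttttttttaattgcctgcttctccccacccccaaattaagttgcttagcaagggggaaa

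The SMAD6 window held GTCTAGAC starting 12 bases before the start, a motif found in 0.202% of the 35116 RefSeq windows of this length. The ID3 window held CAGAC at 147 bases before the start, and the SMAD7 window shown held it at 217 and at 128 bases before the start. CAGAC occurred in 45.3% of all windows, so its presence is common. The ID1 window held overlapping TATA box matches 31 and 33 bases before the start, a motif found in 11.5% of windows, and the ID2 window held none of the 4 motifs. A SMAD7 window not printed here held a TATA box match 35 bases before the start and CAGAC at 193. TATA box matches also occurred in windows of TGFB2, TGFB3 and ID4. GGCGCC, found in 19.2% of windows, occurred among the members in the TGFBI window alone, 111 bases before the start. These matches describe letters in the window and not bound sites. Sequence further than 250 bases before the start was not searched, so a motif missing here may lie outside the window.

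High glucose moved the ligand genes TGFB1 and TGFB2 in opposite directions and, apart from ID1, no other member was called. TGFB1 was 1.30-fold higher and TGFB2 1.41-fold lower than in low glucose. Of the 9 members tested, 2 were called higher (TGFB1 and ID1) and 1 lower (TGFB2), where a call means an adjusted p under 0.05 in limma with Benjamini-Hochberg adjustment over all 16996 genes tested. Among all tested genes 14.6% were called higher and 8.91% lower in this comparison, so the members' share is near the background. With median-of-ratios scaling 51.5% of all calls were higher, against 62.2% here. The median log2 fold change was 0.09 over the 9 members and 0.02 over all tested genes.

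More of the members were called when chrysin was added to high glucose, and more of all tested genes were called too. ID1 and ID3 rose, to 1.87-fold and 2.23-fold of their high glucose levels, while SMAD7, TGFB1, TGFBI and ID2 fell. The 2 higher and 4 lower calls among 9 members stand beside 24.9% and 20.9% of all tested genes. The share called higher (2 of 9) is thus close to the background. The median log2 fold change was -0.26 over the members and 0.03 over all tested genes. Against low glucose, the cells given high glucose with chrysin had 3 members called higher (SMAD6, ID1 and ID3) and 3 called lower (TGFB2, TGFBI and SMAD7), beside 29.7% and 21.3% of all tested genes. The comparisons share libraries and are not independent of each other.

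**Figure D1:**
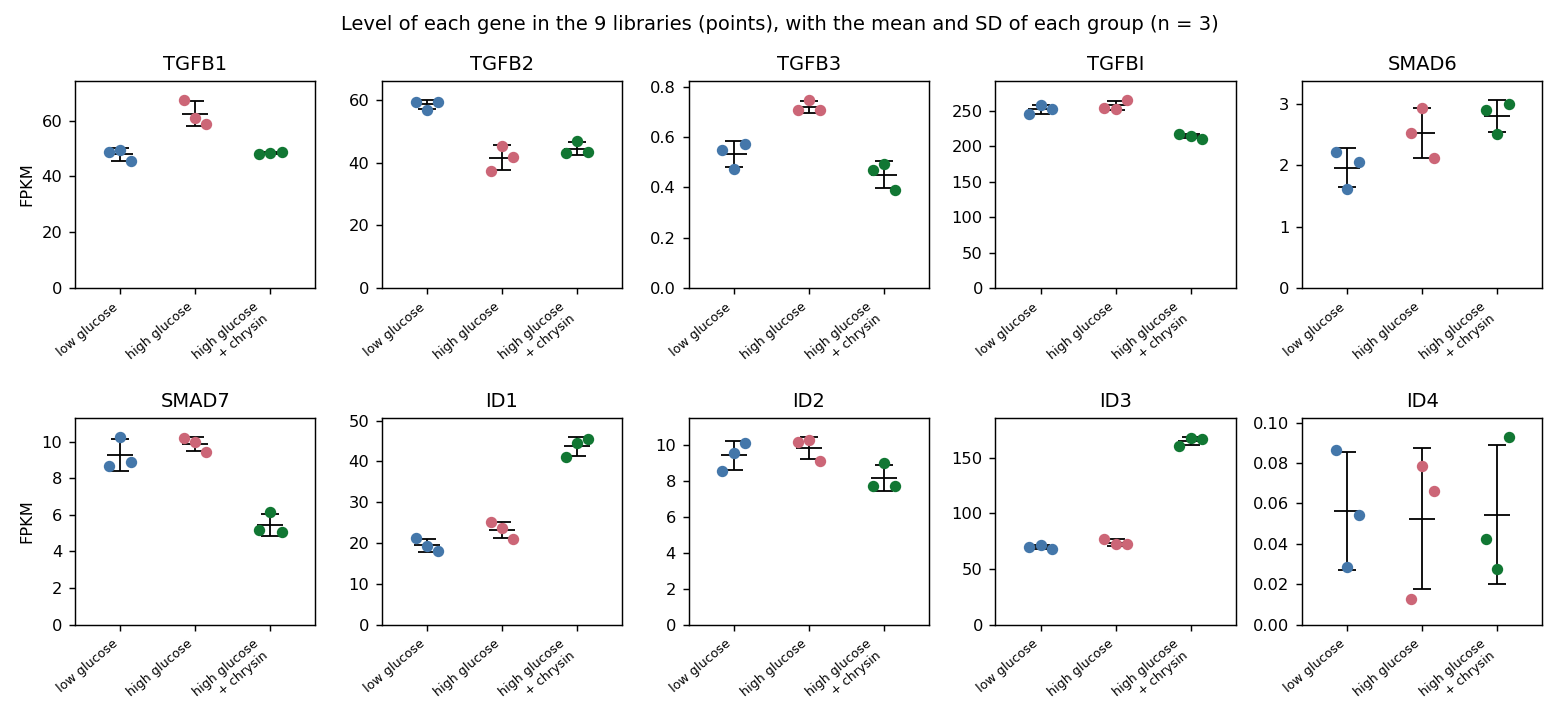
Level of each of the 10 genes in FPKM (vertical axes from 0, a scale for each gene) in the 3 low glucose, 3 high glucose and 3 chrysin libraries, with points for libraries and bars for the mean and SD (n = 3). The chrysin points of ID1 and ID3 lie above all others, those of SMAD7 and TGFBI lie below all others, and TGFB1 is high in the 3 high glucose libraries.

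TGFB1 encodes the most studied of the TGF-beta ligands, a driver of fibrosis in heart and other organs, and lies on chromosome 19 (41301587 to 41353911, minus strand, GENCODE 29 on GRCh38). Its level was 48.7, 49.6 and 45.4 FPKM in the low glucose libraries, 67.5, 61.1 and 59.0 in high glucose, and 47.9, 48.6 and 48.7 with chrysin. Each high glucose library lay above all 6 others, and the low glucose and chrysin libraries overlapped. The log2 fold change, on the scale of FPKM + 0.5, was 0.38 for high against low glucose (SE 0.05, limma adjusted p = 0.000467). It was -0.36 for chrysin against high glucose (SE 0.05, limma adjusted p = 0.000184). With chrysin TGFB1 did not differ detectably from low glucose, at 0.02 with a 95% interval from -0.10 to 0.13 (limma adjusted p = 0.824). HNRNPUL1, an RNA-binding protein gene and the most abundant of the genes that overlap TGFB1 on the opposite strand, averaged 281, 311 and 264 FPKM in the 3 groups in the same order. The sources used here do not say whether reads were counted by strand, and the part of this overlap in the TGFB1 values was not tested.

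TGFB2, a ligand central to heart valve and septum development, lies on chromosome 1 (218346235 to 218444619, plus strand). It measured 59.4, 56.8 and 59.4 FPKM at low glucose, 37.3, 45.3 and 41.8 at high glucose, and 42.9, 46.7 and 43.4 under chrysin. All low glucose libraries were above the other 6, while high glucose and chrysin libraries overlapped. High against low glucose gave a log2 fold change of -0.50 (SE 0.06, limma adjusted p = 0.000333). With chrysin it remained below low glucose, at -0.40 (SE 0.06, limma adjusted p = 0.000345). The chrysin against high glucose difference was 0.10, with a 95% interval from -0.04 to 0.24 (limma adjusted p = 0.229), so a return towards the low glucose level was not detectable. Without high glucose library 2 that difference was 0.16 and passed the threshold (limma adjusted p = 0.0446).

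TGFB3, the ligand known from palate closure, lies on chromosome 14 (75958099 to 75982991, minus strand) and was barely expressed. Its level was 0.550, 0.474 and 0.572 FPKM at low glucose, 0.706, 0.748 and 0.708 at high glucose, and 0.470, 0.492 and 0.389 under chrysin. The high glucose libraries lay above the other 6, but each value rests on 15 to 30 reads. Neither high against low glucose (0.24, limma adjusted p = 0.310) nor chrysin against high glucose (-0.36, 95% interval -0.71 to -0.01, limma adjusted p = 0.0834) passed the threshold. IFT43, a cilium transport gene that overlaps it on the opposite strand, averaged 16.9, 18.1 and 21.4 FPKM in low glucose, high glucose and chrysin, well above TGFB3 itself.

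The 3 ligand genes summed to 107 ± 1.66 FPKM at low glucose, 105 ± 2.89 at high glucose, and 93.2 ± 2.34 under chrysin (SD, n = 3). On this scale the sums of low and high glucose overlapped, but the sum depends on the transcript lengths behind the FPKM. Per length of the longest transcript of each gene it ran from 54.9 to 56.3 FPKM at low glucose, 49.1 to 52.1 at high glucose and 45.5 to 48.1 under chrysin, so that low and high glucose did not overlap. TGFB1 made up 44.8% ± 1.64 of the ligand FPKM at low glucose, 59.7% ± 3.74 at high glucose and 52.0% ± 1.07 under chrysin. Per longest transcript its share was 32.3% ± 1.45, 46.6% ± 3.91 and 38.9% ± 1.02 (SD, n = 3), so the share was highest in high glucose on both scales, while whether TGFB1 made up most of the sum turns on the length. The ratio of TGFB1 to TGFB2 within a library was 0.821, 0.872 and 0.765 at low glucose, 1.81, 1.35 and 1.41 at high glucose, and 1.12, 1.04 and 1.12 under chrysin. The 3 groups did not overlap in this ratio, although 3 against 3 libraries cannot give an exact permutation p below 0.1.

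**Figure D2:**
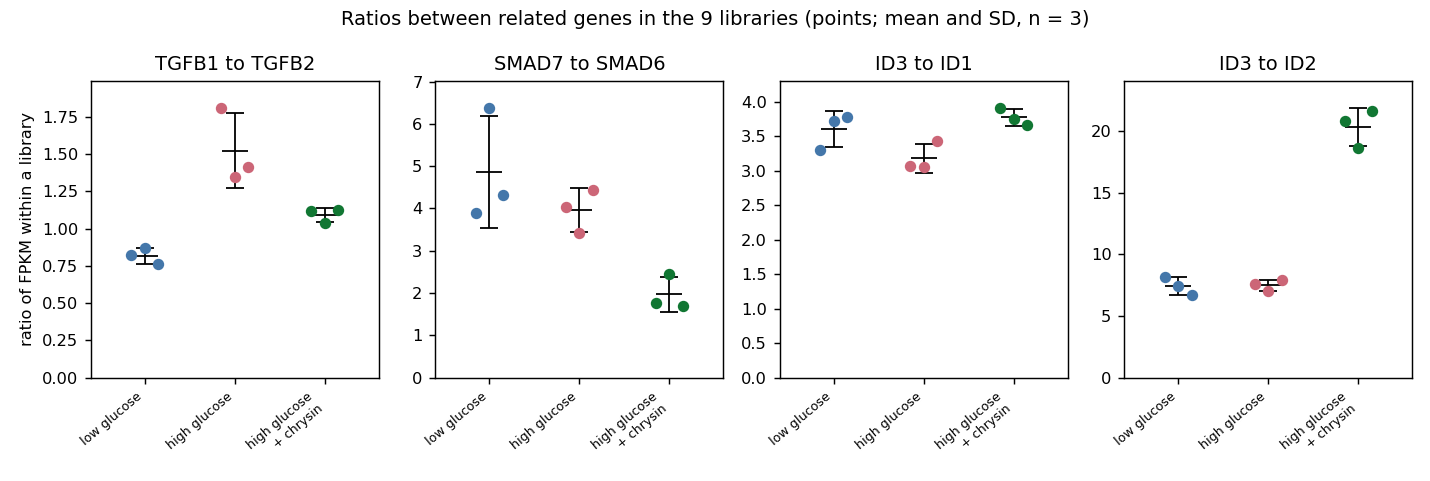
Ratio of FPKM between related genes within each library (vertical axes from 0), with points for the 9 libraries and bars for the mean and SD of each group (n = 3). The TGFB1 to TGFB2 ratio separates all 3 groups, and the ID3 to ID2 ratio is 20.4 on average with chrysin against 7.45 and 7.50 in low and high glucose.

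TGFBI, a secreted matrix protein named for its induction by TGF-beta, lies on chromosome 5 (136028895 to 136063818, plus strand) and had the highest FPKM of the members in every group. It measured 246, 258 and 253 FPKM at low glucose, 255, 253 and 266 at high glucose, and 217, 215 and 211 under chrysin. Low and high glucose overlapped, and the 3 chrysin libraries lay below the other 6. High against low glucose gave 0.03, with a 95% interval from -0.03 to 0.09 (limma adjusted p = 0.469). Chrysin gave a log2 fold change of -0.27 against high glucose (SE 0.03, limma adjusted p = 2.68e-05) and -0.23 against low glucose (SE 0.03, limma adjusted p = 5.17e-05).

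SMAD7 binds activated TGF-beta receptors, blocks SMAD phosphorylation and recruits the ubiquitin ligases SMURF1 and SMURF2, and lies on chromosome 18 (48919853 to 48952052, minus strand). Its level was 8.65, 10.2 and 8.87 FPKM at low glucose, 10.2, 9.99 and 9.42 at high glucose, and 5.16, 6.14 and 5.08 under chrysin, on 132 to 321 reads per library. Every chrysin library was below every other library. The log2 fold change was -0.80 for chrysin against high glucose (SE 0.09, limma adjusted p = 3.42e-05), or 1.75-fold lower, and -0.71 against low glucose (SE 0.09, limma adjusted p = 6.29e-05). Among all tested genes, 452 fell by more than SMAD7 in chrysin against high glucose. High against low glucose gave 0.09, with a 95% interval from -0.10 to 0.29 (limma adjusted p = 0.510).

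SMAD6, the inhibitor that acts mainly on BMP receptors and on SMAD1, lies on chromosome 15 (66702228 to 66782848, plus strand). It measured 2.22, 1.61 and 2.05 FPKM at low glucose, 2.54, 2.93 and 2.12 at high glucose, and 2.91, 2.51 and 3.005 under chrysin, on 68 to 157 reads. The high glucose libraries overlapped both other groups, and the chrysin libraries lay above the low glucose ones. Only chrysin against low glucose was called, at a log2 fold change of 0.43 (SE 0.14, limma adjusted p = 0.0245). Leaving out low glucose library 2 ended that call (limma adjusted p = 0.0925), as did leaving out chrysin library 1 (0.0682) or 3 (0.0801) and applying no filter on low values (0.0662). High against low glucose gave 0.30 (95% interval -0.01 to 0.61, limma adjusted p = 0.155).

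Of the inhibitory SMADs, SMAD7 was lower with chrysin than in high glucose, while SMAD6 was not called (0.13, 95% interval -0.18 to 0.44, limma adjusted p = 0.472). Their ratio, SMAD7 to SMAD6, was 3.89, 6.38 and 4.32 at low glucose, 4.03, 3.41 and 4.45 at high glucose, and 1.77, 2.45 and 1.69 under chrysin. The chrysin ratios lay below all 6 others. The summed FPKM of both genes was 11.2 ± 0.554, 12.4 ± 0.750 and 8.26 ± 0.331 (SD, n = 3) in low glucose, high glucose and chrysin.

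ID3, a BMP-induced inhibitor of E proteins with roles in vessel and heart development, lies on chromosome 1 (23557918 to 23559794, minus strand). It had the largest change of the members. Its level was 69.9, 71.5 and 67.9 FPKM at low glucose, 76.9, 72.0 and 72.0 at high glucose, and 161, 167 and 167 under chrysin. The chrysin libraries stood far above the other 6. The log2 fold change was 1.16 for chrysin against high glucose (SE 0.04, limma adjusted p = 5.50e-09) and 1.24 against low glucose (SE 0.04, limma adjusted p = 1.74e-09). In chrysin against high glucose 244 of the 16996 genes tested rose by more. The high glucose libraries also lay above the low glucose ones, but the difference of 0.08 (95% interval -0.0022 to 0.16) was not called (limma adjusted p = 0.152).

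ID1, the member of the family most used as a readout of BMP signalling, lies on chromosome 20 (31605283 to 31606515, plus strand). It measured 21.2, 19.2 and 17.9 FPKM at low glucose, 25.1, 23.6 and 21.0 at high glucose, and 41.1, 44.6 and 45.6 under chrysin. The chrysin libraries lay above all others, and low and high glucose overlapped. The log2 fold change was 0.90 for chrysin against high glucose (SE 0.08, limma adjusted p = 5.01e-06), with 537 genes rising by more, and 1.15 against low glucose (SE 0.08, limma adjusted p = 6.50e-07).

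In high against low glucose ID1 was called higher at 0.25 (SE 0.08, limma adjusted p = 0.0355), but this call was fragile. It was lost in 8 of 17 alternatives, with adjusted p up to 0.128 in limma. Leaving out low glucose library 2 (0.0878) or 3 (0.128) ended it, and so did the omission of high glucose library 1 (0.110) or 2 (0.0958) or of chrysin library 2 (0.0507). Median-of-ratios scaling gave an adjusted p of 0.0563 in limma, fitting only the groups compared gave 0.0562 and no filter gave 0.0940.

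ID2, which shares the E protein partners of ID1 and ID3, lies on chromosome 2 (8678845 to 8684453, plus strand) and did not rise with them. Its level was 8.55, 9.57 and 10.1 FPKM at low glucose, 10.1, 10.3 and 9.12 at high glucose, and 7.72, 8.98 and 7.73 under chrysin, on 157 to 262 reads. The chrysin libraries lay below the high glucose ones but overlapped low glucose. Chrysin against high glucose gave -0.26 (SE 0.08, limma adjusted p = 0.0270). The call ended when high glucose library 1 (adjusted p = 0.0727 in limma) or 2 (0.0863) was omitted, when chrysin library 1 (0.0883) or 3 (0.0914) was, and with no filter (0.0551). Chrysin against low glucose gave -0.20 and was not called (limma adjusted p = 0.0731). Omitting low glucose library 1 (adjusted p = 0.0348 in limma) or chrysin library 2 (0.0306) gave a call, as did median-of-ratios scaling (0.0283). The antisense transcript ID2-AS1 overlaps ID2 and averaged 0.198, 0.311 and 0.558 FPKM in the 3 groups in the same order.

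ID4 lies on chromosome 6 (19837386 to 19840684, plus strand) and was below the filter. Its level ran from 0.0127 to 0.0931 FPKM over the 9 libraries, on 1 to 8 reads each, and no difference was detectable at this depth.

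Together the ID genes summed to 98.7 ± 2.34 FPKM at low glucose, 107 ± 5.06 at high glucose, and 217 ± 6.46 under chrysin (SD, n = 3). ID3 supplied 70.7%, 69.0% and 76.1% of that sum in the 3 groups, and ID2 9.55%, 9.22% and 3.75%. The ratio of ID3 to ID1 averaged 3.60 ± 0.264, 3.18 ± 0.211 and 3.78 ± 0.125, and its chrysin libraries, at 3.66 to 3.91, lay above the high glucose ones, at 3.05 to 3.43, and overlapped low glucose. Both genes rose with chrysin, ID3 by somewhat more than ID1 against high glucose. The ID3 to ID2 ratio was 20.8, 18.7 and 21.6 with chrysin, against 6.71 to 8.18 in the 6 other libraries. The ratio of ID3 to SMAD7 averaged 7.57 ± 0.557, 7.46 ± 0.222 and 30.4 ± 2.88 (SD, n = 3).

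**Figure D3:**
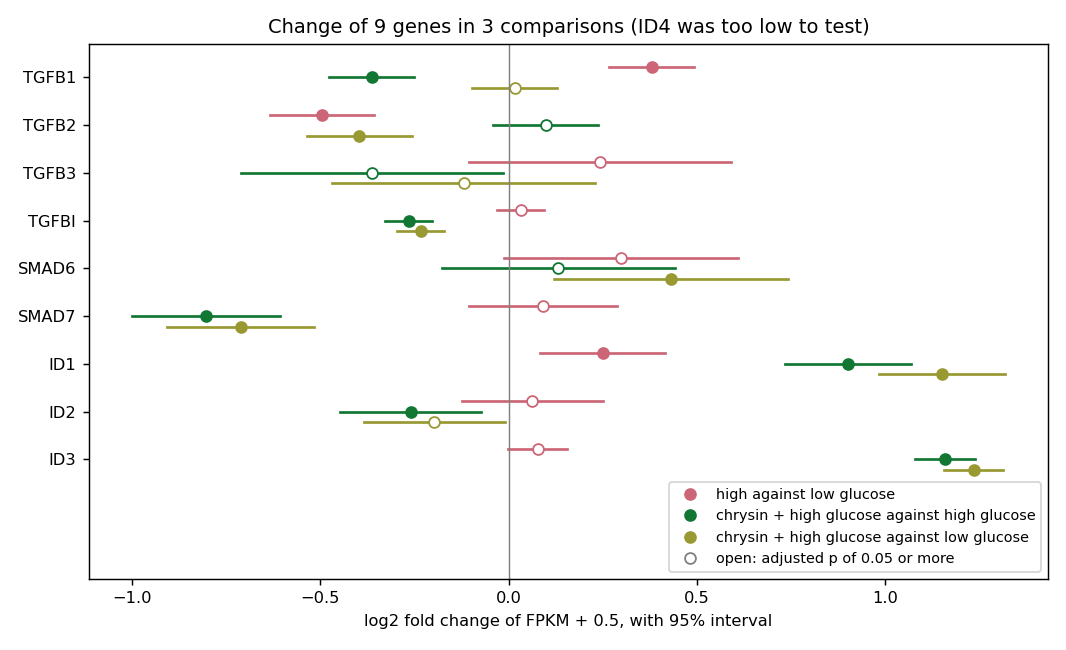
Log2 fold change of FPKM + 0.5 (horizontal axis) with its 95% interval for the 9 tested genes in 3 comparisons, where filled points have an adjusted p under 0.05 in limma. ID3 and ID1 lie furthest to the right in both chrysin comparisons, SMAD7 lies furthest to the left, and TGFB1 is the one gene called in opposite directions by high glucose and by chrysin.

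The order of the members by FPKM was TGFBI, ID3, TGFB2, TGFB1, ID1, ID2, SMAD7, SMAD6, TGFB3 and ID4 in low glucose, where ID2 and SMAD7 overlapped. In high glucose TGFB1 stood above TGFB2 and SMAD7 overlapped ID2. With chrysin TGFB2 and ID1 overlapped. This order rests on the transcript lengths behind the FPKM. The length implied by the recovered reads was 1034 bases for TGFB1, 3211 for TGFB2 and 1455 for TGFBI, whereas the longest GENCODE 29 transcripts have 2769, 5053 and 4661 bases. Per length of the longest transcript, TGFB1 averaged 23.4 and TGFB2 26.4 FPKM in high glucose, so which ligand was more abundant there turns on the length used. On that scale ID3 (109 FPKM) stood above TGFBI (66.9 FPKM) with chrysin. The ratio of FPKM of 1 gene between groups does not depend on the length. A log2 fold change of FPKM + 0.5 does depend on it where the level is low, as for TGFB3. Low genes named below include ITGB8, NOG, GDF6, ACVR2B, INHBB and ATOH8, which reached a mean of 5 FPKM in no group.

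Genes with the most similar pattern were sought among the 9840 genes that averaged 5 FPKM or more, by Pearson's r of log2(FPKM + 0.5) over the 9 libraries, which share their depth and their 3 groups. For ID3 they were PEA15 (r = 0.997), NT5E (0.997) and MYL12A (0.996), the last rising from 411 FPKM in high glucose to 671 with chrysin. For SMAD7 they included VSIR (0.995) and CALCOCO2 (0.991), and VSIR averaged 13.9 FPKM in high glucose and 7.23 with chrysin. For TGFBI they were PTN (0.992), HBP1 (0.989) and AJUBA (0.988). For TGFB1 they were LCAT (0.986), KLHDC3 (0.984) and the pseudogene ECEL1P2 (0.983), and LCAT averaged 13.7, 19.6 and 13.9 FPKM in low glucose, high glucose and chrysin.

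Around the members stood 91 other genes of the network in 10 lists, of which 74 were tested. The lists were chosen with earlier results of these data known, so their shares beside the background are a description and not independent support. In chrysin against high glucose 36 of the 74 (48.6%) were called lower and 10 (13.5%) higher, beside 20.9% and 24.9% of all tested genes, with a median log2 fold change of -0.20 against 0.03 over all genes. In high against low glucose 16 (21.6%) were lower and 12 (16.2%) higher, beside 8.91% and 14.6%, with a median of 0.04 against 0.02. Leaving out 1 library at a time gave 32 to 35 lower and 9 to 10 higher calls for chrysin against high glucose.

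TGFBR1, the type I receptor kinase of TGF-beta, averaged 47.5 FPKM at low glucose, 48.7 at high glucose, and 29.1 under chrysin, a log2 fold change of -0.73 for chrysin against high glucose (SE 0.05, limma adjusted p = 9.75e-07). The co-receptor ENG (-0.22) and the type II receptor TGFBR2 (-0.16) were also called lower. That made 3 of 5 TGF-beta receptors lower and 0 higher, beside 20.9% and 24.9% of all tested genes. The TGFBR2 call ended without high glucose library 3 (limma adjusted p = 0.125), chrysin library 1 (0.0902) or 3 (0.0941) and with no filter (0.0590). ENG was the 1 receptor of this list called in high against low glucose, at 0.18, and that call ended without low glucose library 3 (limma adjusted p = 0.0887), high glucose library 1 (0.0670) or 2 (0.0832) and when the filter was dropped (0.0641). Among BMP and activin receptors, 3 of 6 tested were lower with chrysin, beside 20.9% of all tested genes: ACVR2B (-0.72), ACVR2A (-0.41) and ACVR1 (-0.16). ACVR1, a BMP type I receptor, and ACVR2A were also lower in high than in low glucose, at -0.41 and -0.31. Omitting low glucose library 3 (limma adjusted p = 0.0978), high glucose library 2 (0.0686) or 3 (0.0805) or the filter (0.0565) ended the ACVR2A call in high against low glucose. The ACVR1 call with chrysin ended on the omission of low glucose library 1 (limma adjusted p = 0.0524), 2 (0.0560) or 3 (0.0540), of high glucose library 1 (0.0701) or 2 (0.134), and of chrysin library 2 (0.149) or 3 (0.0857), with no filter (0.0598) and in a fit of only the groups compared (0.0740). SMAD3, the SMAD that carries the TGF-beta signal to DNA, fell from 166 FPKM in high glucose to 117 with chrysin (-0.50, limma adjusted p = 1.66e-06). SMAD5, of the BMP branch, was higher by 0.14 with chrysin and by 0.15 in high against low glucose, where SMAD2, of the TGF-beta branch, was lower (-0.19, limma adjusted p = 0.0236). In high against low glucose the SMAD5 call ended without low glucose library 1 (limma adjusted p = 0.0598) or high glucose library 2 (0.0508) or 3 (0.0537). The SMAD2 call there ended without low glucose library 1 (limma adjusted p = 0.0549) or 3 (0.0818) or high glucose library 2 (0.0594). The other 4 of the 6 SMADs tested were not called with chrysin.

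Of 12 tested genes that store or activate latent TGF-beta, 8 were lower with chrysin and 1 higher, beside 20.9% and 24.9% of all tested genes. The call of LRRC32, among the 8, was lost in 6 of 16 alternatives. ITGB8 (-1.27) and ITGB5 (-0.86), beta subunits of integrins that bind latent TGF-beta, fell furthest, and the latency binding protein LTBP4 (-0.42) and the microfibril protein FBN1 (-0.41) fell with them. FURIN, the protease that cleaves the TGF-beta precursor, was the gene that rose (0.20), and it also rose in high against low glucose (0.35). THBS1, a latent TGF-beta activator, averaged 1308 FPKM at low and 947 at high glucose (-0.47, limma adjusted p = 2.45e-05).

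Of 5 tested BMP and activin ligands, GDF6 (-0.72) and INHBB (-0.31) were lower with chrysin, and INHBA, the activin A subunit, fell by 0.80 on the log2 scale in high against low glucose while GDF11 rose by 0.54. The INHBB call ended without high glucose library 1 (limma adjusted p = 0.0725) or 2 (0.0930), without chrysin library 1 (0.0532), 2 (0.0676) or 3 (0.0571) and with no filter (0.0509). INHBA was not called in chrysin against high glucose (-0.27). Some alternatives called it lower there, among them omission of high glucose library 1 (limma adjusted p = 0.0127) and median-of-ratios scaling (0.0344). Among 7 tested antagonists that bind these ligands, FST (follistatin) averaged 57.2 FPKM at low and 25.7 at high glucose (-1.15, limma adjusted p = 1.78e-06) and 36.6 under chrysin (0.51 against high glucose). GREM1, a BMP antagonist, was lower in high glucose (-0.32). With chrysin 3 antagonists were higher, NOG (0.70) and FST among them, and 2 were lower, FSTL3 (-0.35) and CHRDL1 (-0.31). These counts stand beside 24.9% and 20.9% of all tested genes.

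Of 12 tested co-repressors and feedback regulators, 7 were lower with chrysin and 1 higher, beside 20.9% and 24.9% of all tested genes. Among the 7, the calls of USP4, BAMBI and PMEPA1 were lost in 5, 3 and 2 alternatives. NEDD4L (-0.69) and SMURF2 (-0.39), ubiquitin ligases acting on SMADs and receptors, fell together with the co-repressor TGIF1 (-0.58), whereas SMURF1 rose (0.24). In high against low glucose TGIF1 (-0.45) and SMURF2 (-0.26) fell and SKI, a co-repressor, rose (0.20).

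Of 12 tested targets of TGF-beta, 7 were lower and 2 higher with chrysin, with a median of -0.37, beside 20.9% and 24.9% of all tested genes. COL1A1, the main chain of type I collagen and also one of the fibroblast markers above, fell from 5138 FPKM in high glucose to 2899 (-0.82, limma adjusted p = 6.64e-08). FN1 (fibronectin, -0.48) and HMGA2 (-0.52) also fell, while TAGLN, a smooth muscle actin-binding protein, rose by 0.72. In high against low glucose 5 of the 12 fell and 2 rose, beside 8.91% and 14.6% of all tested genes. CCN2 (-0.76) was among the lower, and JUNB (0.65) and COL1A1 (0.47) were the higher. The call of TAGLN, lower here, was lost in 2 of 17 alternatives. Of 8 tested BMP targets outside the members, GATA2 (0.43) and ATOH8 (0.31) rose with chrysin and RUNX2 (-1.21) and BAMBI (-0.36) fell, so the shares were near the background. The ATOH8 call ended without high glucose library 3 (limma adjusted p = 0.0670), chrysin library 1 (0.0725) or 3 (0.0627) and with no filter (0.0538). That of BAMBI ended without high glucose library 1 (limma adjusted p = 0.0507) or 2 (0.0564) or chrysin library 1 (0.0569). The calls of GATA2 and RUNX2, in opposite directions, held in every alternative run. Of the 3 E proteins, TCF4 (-0.31) and TCF3 (-0.20) were lower with chrysin, and TCF3 was higher in high against low glucose (0.21).

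**Figure D4:**
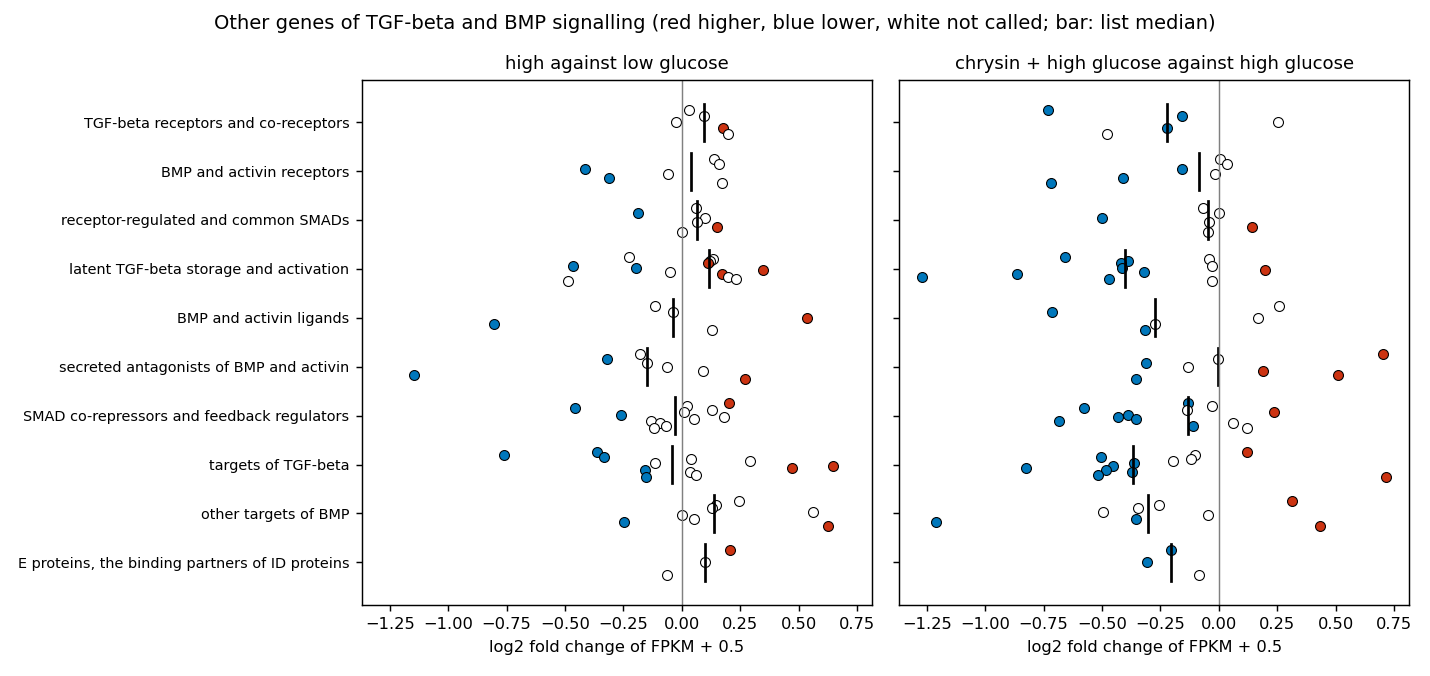
Log2 fold change of FPKM + 0.5 (horizontal axes) of the tested genes of 10 lists, 1 list per line, for high against low glucose (left) and chrysin with high glucose against high glucose (right), where red and blue points were called higher and lower, white points were not called and bars mark list medians. On the right 36 of 74 different genes are blue, with RUNX2 and ITGB8 furthest to the left and TAGLN and NOG furthest to the right. A gene in more than 1 list, such as BAMBI, is drawn once for each.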

How the data were processed

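Polyadenylated RNA was sequenced from 9 libraries of AC16 cells, 3 per group, grouped by the treatment label. The deposited table held FPKM for 60671 genes, made by the authors; its unit was read from the values, since no header names it. Per the submitters' processing notes, the build was hg38 and the tools were HTSeq 0.13.5, StringTie 2.2.1, HISAT2 2.2.1 and fastp 0.23.4, with no roles given. The sources used here name neither the annotation nor the use of strand.

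Each gene's FPKM were whole multiples of 1 step, so whole reads could be recovered for 28230 of the 28230 genes above 0 in at least 2 libraries (100%), each value within 4.47e-05 reads of a whole number. These reads give the depth (18171842 to 23024300 per library) and entered an alternative test, limma voom, which called 2854 genes higher and 1800 lower in high against low glucose. Differences were tested on log2(FPKM + 0.5) by limma 3.58.1 (R 4.3.3), with its trend option. The fit took genes whose mean reached 0.5 FPKM in 1 or more groups, used all 9 libraries together without a block, and was two-sided. It had been run on simulated data in which far fewer genes changed than were called here, and that outcome is not reported. Benjamini-Hochberg adjustment ran over all 16996 genes, and an adjusted p under 0.05 was a call. An exact permutation of 3 against 3 cannot go below p = 0.1. Length was implied from reads and FPKM and compared with GENCODE 29, and promoter windows came from RefSeq (GRCh38.p14).

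The members and lists were chosen with earlier results of these data known. All members are named; of each list, up to 4 called genes with the smallest p in each of the first 2 comparisons may be named, plus others whose values stand beside a member. Some genes that this rule names are not reported here. Alternatives changed the pseudocount, filter, scaling, samples fitted, block or test, and left out each library in turn.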

Additional observations from a re-analysis of the deposited data

How the results depend on the processing

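Over the 9 tested members and 3 comparisons, 453 values were recomputed under alternatives: 432 kept their side of the threshold, 17 lost their call, 4 gained one and 0 reversed while called. Values that were not called could change sign. TGFB1 in chrysin against low glucose ran from -0.04 to 0.04, and ID2 in high against low glucose from -0.0015 to 0.11. The calls of TGFB1, TGFB2, TGFBI, SMAD7 and ID3, and of ID1 in both chrysin comparisons, held in all 17 alternatives each. The calls that changed were those of ID1 in high against low glucose, ID2 in both chrysin comparisons, SMAD6 in chrysin against low glucose and TGFB2 in chrysin against high glucose. The number of members called higher in high against low glucose was 1 in place of 2 with no filter, with median-of-ratios scaling and when only the groups compared were fitted, and 1 to 2 when each library was left out in turn. In each case the member lost was ID1.

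Median-of-ratios scaling moved the calls over all genes in high against low glucose from 2488 higher and 1514 lower (62.2% higher) to 1987 and 1869 (51.5% higher). Of the other network genes, 8 of 28 calls in high against low glucose and 8 of 46 in chrysin against high glucose were lost in 1 or more alternatives, and 0 reversed. Other network genes gained a call in 1 or more alternatives, among them SMAD3 and NEDD4L in high against low glucose and INHBA and TGIF2 in chrysin against high glucose. With a replicate block, 2272 genes were called higher and 1421 lower in high against low glucose, and no call of a member changed. Of the other network genes, TGFBR2 and ACVR1 lost their call in chrysin against high glucose and BMPER in chrysin against low glucose. With that block SMAD3 gained a call in high against low glucose (limma adjusted p = 0.0246) and INHBA in chrysin against high glucose (0.0475). Same-numbered libraries did not deviate together (r from -0.015 to 0.008 over 9 pairs, against -0.021 to 0.026 over 18 other pairs), and 0 of 9 libraries matched their own number best, so the numbers were not taken as pairs. Depth limits TGFB3 (15 to 30 reads per library), ID4 (1 to 8) and SMAD6 (68 to 157), where differences of the size seen for TGFBI would not be detectable.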

Other observations

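ID2-AS1, the antisense transcript opposite ID2, had 12, 8 and 17 reads in the low glucose libraries, 26, 24 and 13 in high glucose and 29, 32 and 46 with chrysin. It was called higher in chrysin against low glucose (log2 fold change 0.60, SE 0.19, limma adjusted p = 0.0230), in the comparison where ID2 itself was not called and gave -0.20. It passed the filter only through the chrysin group, at 0.558 FPKM, so the call could not have been made without a high chrysin level, and reads of ID2 and ID2-AS1 cannot be told apart if strand was not used.

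TGFB2-AS1, a noncoding transcript next to TGFB2, averaged 3.72 FPKM at low glucose, 2.48 at high glucose and 2.99 under chrysin, on 24 to 56 reads per library. Its log2 fold change of -0.47 in high against low glucose was close to the -0.50 of TGFB2 but was not called (95% interval -0.90 to -0.04, limma adjusted p = 0.112).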
